A study of Mus musculus with 4 samples.

Results

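Weak distal peaks shared by both replicates are places away from gene starts where the V5 antibody gave a low peak in each replicate of the line with tagged FOXR2. A member is a stretch covered by a peak of both FOXR2 P53LoF replicates where each peak had a fold over background of 6 or less. It overlaps no peak of either control replicate by 1 bp, lies on chromosomes 1 to 19 or X, and lies over 1 kb from every start of a protein-coding transcript. There were 5567 such stretches among the 24755 stretches shared by both replicates. The paper's filter against false positives removed peaks with a fold of 6 or less, so the peaks behind the members were not kept there. Members were selected on the folds of both tagged libraries and on the peaks of both control libraries, so these values are given as a description with no test.

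CUT&RUN with a V5 antibody was carried out on cells from tumours of C57BL/6J mice made by in utero electroporation (IUE) and cultured as lines. The FOXR2 P53LoF line (2 replicates) carries V5-tagged FOXR2 driven by the ubiquitous CAG promoter of a transposon vector, together with loss of p53 function through a CRISPR guide against Trp53. The G34R control (2 replicates) is from a separate IUE model, has the genotype H3.3G34R and lacks the tag, so the lines differ in oncogene as well as in the tag. All 4 libraries came from lightly cross-linked cells, and neither the labels nor the methods state that the replicates of a line were separate cultures. The tagged lists held 31909 peaks in replicate 1 and 38580 in replicate 2, against 308 and 124 peaks in the control lists. Of 5587 stretches that met the other parts of the rule, 20 overlapped a control peak and were left out. The control peaks were few, with median folds of 6.68 and 14.9, so this rule can remove little low background. Whether the members depend on the tag was not tested. The peak lists hold no RNA measurement, and expression data of the line were not analysed here, so the identity of the cells was not checked against marker expression.

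FOXR2 is a forkhead transcription factor that is normally little expressed outside the testis and is activated in a class of brain tumours. In CUT&RUN a nuclease tethered to the antibody cuts the DNA on either side of the bound protein, and the freed fragments are sequenced. DNA far from gene starts holds enhancers, where several transcription factors bind short motifs side by side and act on genes at a distance. ETS, SOX, NFI and ASCL factors act in neural and glial progenitors, AP-1 acts at many active enhancers, and CTCF separates chromatin domains.

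Windows of 200 bp around the centres of 8 members are shown for the 2 families closest to the study (forkhead and ETS) and for 6 further motifs that were more frequent in members than in the genome at the same base composition. For each motif the member shown had the highest −log10 q in its weaker replicate, with the centre outside exons. They are the forward strand of GRCm38.p6, which has the mm10 coordinates of the peaks, and capitals mark the motif letters on either strand.
Full ETS site, chr12:54121571-54121770: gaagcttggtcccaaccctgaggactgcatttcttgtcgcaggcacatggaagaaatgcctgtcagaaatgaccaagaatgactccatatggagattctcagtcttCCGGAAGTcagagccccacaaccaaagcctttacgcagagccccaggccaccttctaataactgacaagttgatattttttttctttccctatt
Forkhead site, chr1:189496315-189496514: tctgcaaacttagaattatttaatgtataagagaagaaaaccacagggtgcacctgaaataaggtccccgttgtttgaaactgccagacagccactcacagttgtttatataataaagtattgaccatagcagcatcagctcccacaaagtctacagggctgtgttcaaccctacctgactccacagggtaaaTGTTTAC
SOX site, chr11:120776273-120776472: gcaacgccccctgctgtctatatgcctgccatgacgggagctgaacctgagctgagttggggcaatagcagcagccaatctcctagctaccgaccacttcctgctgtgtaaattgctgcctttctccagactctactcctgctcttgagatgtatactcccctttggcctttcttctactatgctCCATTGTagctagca
AP-1 site, chr11:98057510-98057709: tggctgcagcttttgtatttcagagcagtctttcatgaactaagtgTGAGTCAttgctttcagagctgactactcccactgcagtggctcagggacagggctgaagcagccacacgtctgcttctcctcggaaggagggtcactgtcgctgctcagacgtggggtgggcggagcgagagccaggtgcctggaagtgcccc
ASCL E-box, chr11:107376402-107376601: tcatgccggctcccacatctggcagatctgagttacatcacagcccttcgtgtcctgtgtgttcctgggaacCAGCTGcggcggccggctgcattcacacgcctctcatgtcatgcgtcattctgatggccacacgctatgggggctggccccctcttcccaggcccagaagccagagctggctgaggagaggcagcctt
CTCF core, chr3:88422184-88422383: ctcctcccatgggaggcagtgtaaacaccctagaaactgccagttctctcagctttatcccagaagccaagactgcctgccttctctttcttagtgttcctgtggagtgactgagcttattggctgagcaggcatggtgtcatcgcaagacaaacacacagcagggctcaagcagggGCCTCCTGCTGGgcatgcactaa
NFI palindrome, chr6:137465232-137465431: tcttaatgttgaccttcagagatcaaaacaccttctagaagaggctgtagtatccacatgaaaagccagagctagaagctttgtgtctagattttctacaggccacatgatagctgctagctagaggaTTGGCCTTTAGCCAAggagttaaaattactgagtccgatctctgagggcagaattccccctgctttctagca
RFX palindrome, chr5:125675721-125675920: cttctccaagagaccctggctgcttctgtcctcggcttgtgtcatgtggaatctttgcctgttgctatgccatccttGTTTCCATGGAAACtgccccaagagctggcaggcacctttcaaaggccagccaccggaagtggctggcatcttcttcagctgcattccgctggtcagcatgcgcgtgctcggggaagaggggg

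The ETS window lies between genes, 81744 bp from the nearest protein-coding start (Egln3, an oxygen-sensing prolyl hydroxylase). Its peaks had 12 fragments at the summit in replicate 1 (fold 5.74) and 17 in replicate 2 (fold 5.91), which are the highest values the rule admits. The forkhead, SOX, AP-1 and ASCL windows had the same 12 and 17 fragments. Of these, the first lies 93830 bp from a start of Kcnk2 (a potassium channel), the SOX window 7593 bp from Rfng (a modifier of Notch), the AP-1 window 3867 bp from Stac2, and the ASCL window in an intron of Pitpnc1 (a lipid transfer protein). The CTCF window, in an intron of the mitochondrial carrier gene Slc25a44, had 12 and 16 fragments. The NFI window, 54222 bp from a start of the receptor phosphatase gene Ptpro, had 11 and 15. The RFX window, in an intron of Tmem132b, had 11 and 16. Each window thus rests on fewer than 20 fragments in either library.

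The folds of the members were whole steps. A fold is the fragments at the summit plus 1 over the background plus 1, and 1 fragment was worth 0.442 in replicate 1 and 0.329 in replicate 2. All members (100% in both replicates) came out at whole fragments within 0.02. In replicate 1 they ran from 6 fragments (fold 3.09) to 12 (fold 5.74), and the largest step held 1173 members at 9 fragments (fold 4.42). In replicate 2 they ran from 8 fragments (fold 2.96) to 17 (fold 5.91), and the largest step held 778 members at 13 fragments (fold 4.60). A fold above the limit needed 13 fragments in replicate 1 and 18 in replicate 2. Counting error is wide at such heights: 12 fragments have a 95% exact Poisson interval of 6.20 to 20.96, or folds of 3.18 to 9.70. For 5173 members (92.9%) the upper limits in both replicates reached the fragments needed to pass the fold limit. These intervals cover counting error only.

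**Figure D1:**
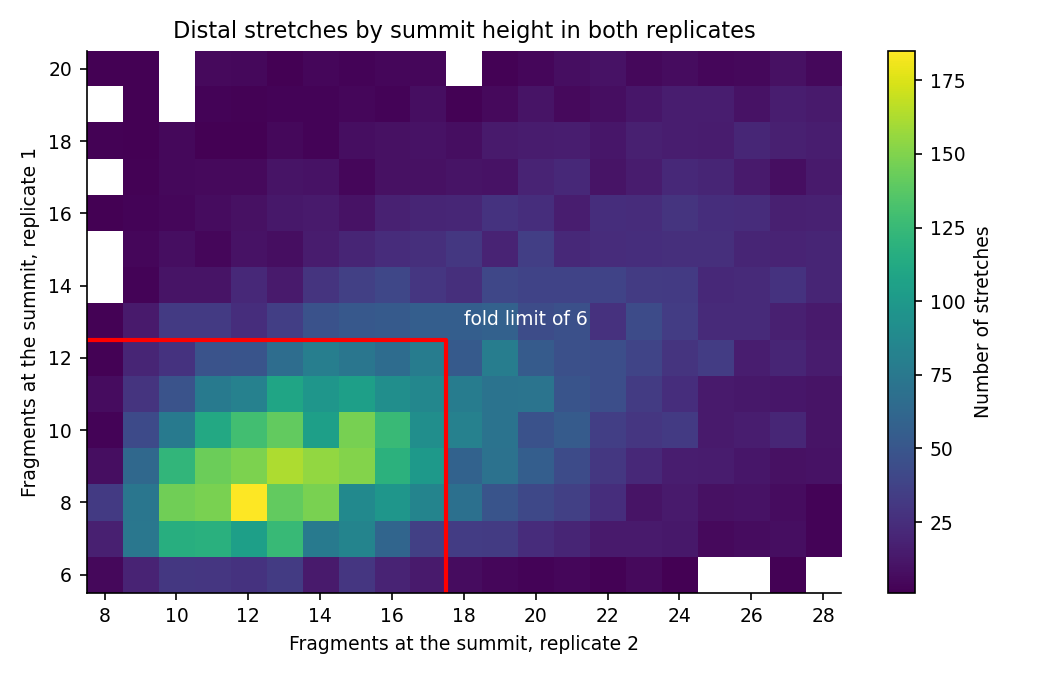
Number of distal stretches without control overlap by fragments at the summit in replicate 2 (horizontal) and replicate 1 (vertical), up to 28 and 20 fragments. The red line bounds the weak distal stretches, whose count is highest at 8 to 10 fragments in replicate 1 and falls off towards the limit with no gap there.

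Just inside the limit, 78 stretches had 12 and 17 fragments. Just outside it, 56 distal stretches without control overlap had 13 and 18 fragments (folds 6.19 and 6.24). Their median lengths were 786 and 984 bp, and their centres lay in introns in 39.7% and 39.3%. Median GC content was 50.25% inside and 47.25% outside, and the summits of the replicates were a median of 146.5 and 232 bp apart. The limit therefore passed through a continuous range of heights. Over the members, Spearman's rho between the folds was 0.19, given as a description over regions that share libraries. The lower of the 2 folds was under 4 in 3006 members (54.0%), 4 to 5 in 2061 (37.0%) and 5 or more in 500 (8.98%). A −log10 q above 6, which the paper's filter also required, was found in both replicates in 297 members (5.34%). It was found in 511 in replicate 1 and in 2426 in replicate 2, since the same fold stands for more fragments there.

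The share of low peaks found again in the other replicate rose with their height. Replicate 1 held 15035 distal peaks of fold 6 or less without control overlap, and a peak of replicate 2 overlapped 8093 of them (53.8%). Replicate 2 held 20251, and replicate 1 overlapped 6388 (31.5%). Among peaks of replicate 1 the share was 20.6% at 6 fragments, 62.0% at 9 and 89.5% at 12. Among peaks of replicate 2 it was 7.69% at 8 fragments, 42.5% at 13 and 74.7% at 17. Above the limit it was 97.6% in replicate 1 and 93.3% in replicate 2. For comparison, peaks of replicate 2 covered 1.31% of the bases of distal windows and peaks of replicate 1 covered 0.917%, although a whole peak meets another more often than a single base does.

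**Figure D2:**
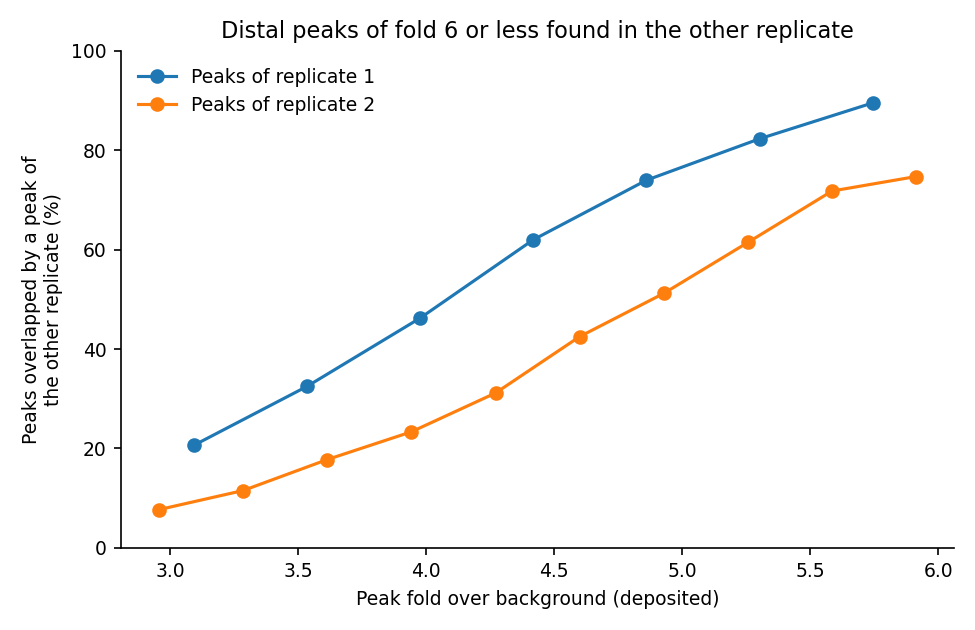
Percentage of distal peaks of fold 6 or less that a peak of the other replicate overlaps (vertical), by deposited fold (horizontal), with 1 point for each step of 1 fragment. Both lines climb at every step, to 89.5% for replicate 1 and 74.7% for replicate 2.

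The members were short. Their median length was 449 bp (range 1 to 2714), against 1472 bp for the 4188 distal stretches with both folds above 6, called stronger distal stretches below. Together they covered 2.79 Mb. Only 136 members (2.44%) were under 50 bp. The summits of the 2 replicates were a median of 271 bp apart, against 100.5 bp in the stronger distal stretches, and lay within 100 bp of each other in 1489 members (26.7%). In 2465 members (44.3%) at least 1 summit lay outside the shared stretch. The replicates thus place a weak peak less closely than a stronger one. The 5567 members came from 5473 peaks of replicate 1 and 5421 of replicate 2, so a few neighbouring members share a peak.

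Members lay mostly in introns and between genes. The centre was in an intron of a protein-coding gene in 2614 members (47.0%, 95% Wilson interval 45.6 to 48.3) and outside any gene in 2248 (40.4%, 39.1 to 41.7). It was in a gene that is not protein-coding in 444 (7.98%), in an untranslated exon part in 192 (3.45%) and in coding sequence in 69 (1.24%). In the stronger distal stretches introns held 44.2% (42.7 to 45.8) and intergenic DNA 41.0%. Among all 12447079 distal 200 bp windows of the genome, introns held 36.4% and intergenic DNA 53.5%. Introns thus held more of the members than of the distal genome, and the intervals of the weak and stronger stretches overlapped. Both replicates gave the same picture, with 46.9% and 46.7% of their own summits in introns. The median gap to the nearest protein-coding start was 24053 bp, against 27633 bp for stronger distal stretches. It was at most 10 kb in 1707 members (30.7%) and over 100 kb in 1015 (18.2%). Starts of genes that are not protein-coding lay within 1 kb of 297 members (5.34%) and of 528 stronger distal stretches (12.6%).

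**Figure D3:**
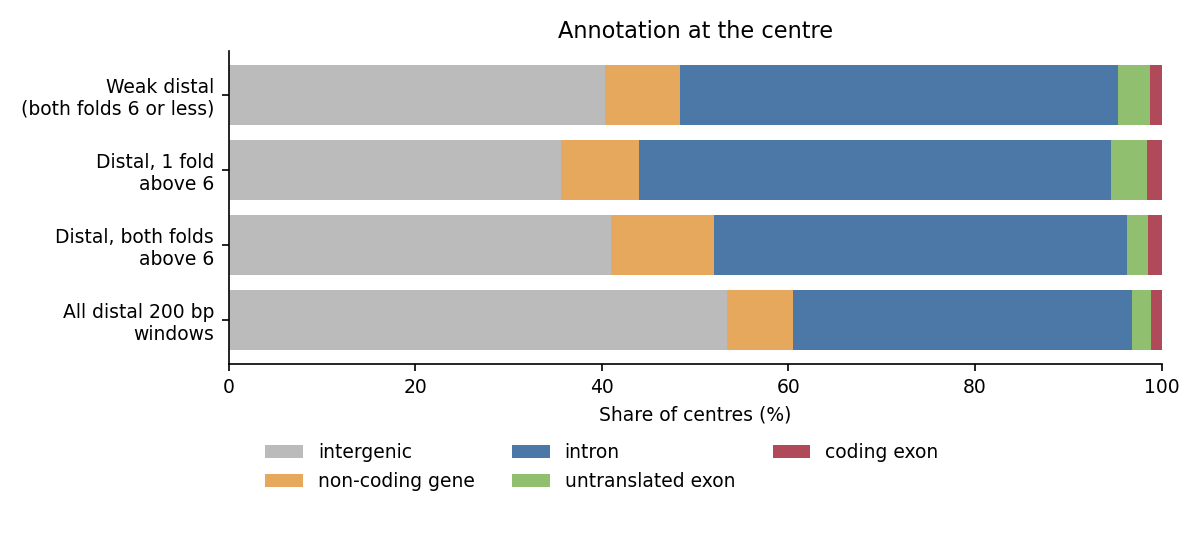
Percentage of centres (horizontal) in each annotation class for weak distal stretches, distal stretches with 1 or both folds above 6, and all distal 200 bp windows. Introns hold 47.0% of the weak distal centres and 36.4% of the distal windows.

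The base composition of the members lay between the distal genome and the stronger distal stretches. Median GC content was 46.0% (quartiles 41.0 and 51.5) in members, 48.5% in stronger distal stretches and 41.5% in distal windows of the genome. Around the summits of replicates 1 and 2 the members had medians of 46.0% and 45.5%. CpG dinucleotides, which are dense in promoter islands, numbered 2.92 per 200 bp in members, 4.17 in stronger distal stretches, 1.56 in the distal genome and 12.2 in the 1437 weak stretches near starts. Repeats masked in the assembly made up 15.2% of the members' bases, 13.2% in stronger distal stretches and 34.8% in the distal genome. Whether mapping of reads in repeats had a part in the last difference was not tested. GC content differed within the members, from a median of 45.5% where the lower fold was under 4 to 48.5% where it was 5 or more. Masked bases went from 16.1% to 12.4% over the same groups.

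Of 20 motifs searched, 13 had a 95% Wilson interval wholly above the genome's level, 1 wholly below it and 6 across it. The intervals treat stretches as independent and make no allowance for the number of motifs, so these counts are a description. Each share below is the percentage of 200 bp windows with the letters on either strand, followed by the share that all distal windows gave at the GC content of the members. AP-1 letters (TGANTCA, for FOS and JUN dimers) were in 508 members (9.13%, 95% Wilson interval 8.40 to 9.91), against 5.65% in the genome at the same GC. SOX letters (ACAATGG or ACAAAGG, for SOX10 and its relatives) were in 572 (10.3%, 9.50 to 11.1), against 7.38%. The ASCL E-box (CAGCTG, for proneural factors) was in 776 (13.9%, 13.0 to 14.9), against 9.69%. These 3 genome levels lay below the members' intervals. The stronger distal stretches had 9.26%, 10.9% and 16.3%.

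ETS letters were less frequent. The core CCGGAA was in 176 members (3.16%, 2.73 to 3.65), against 2.21% in the genome at the same GC, a ratio of 1.43. In stronger distal stretches it was in 4.27% (3.70 to 4.93), against 2.97% at their own GC, a ratio of 1.44. The full site CCGGAAGT, which contains that core, was in 14 members (0.25%), against 0.16% at the same GC, and the genome level lies within the interval (0.15 to 0.42). Its ratio to the genome at the same GC was 1.55 in members and 2.257 in stronger distal stretches. ETS1-type letters (ACAGGAA) were in 420 (7.54%, 6.88 to 8.27), against 5.97%. The forkhead letters TGTTTAC, those of the family of FOXR2 itself, were in 162 members (2.91%, 2.50 to 3.39), against 2.50% in the genome at the same GC and 2.99% in all distal windows. In stronger distal stretches they were in 3.10% (2.62 to 3.67), against 2.24% in the genome at the GC of those stretches.

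CTCF letters (CCANNAGGNGGC) were in 55 members (0.99%, 0.76 to 1.28), against 0.27% at the same GC, a ratio of 3.70. Stronger distal stretches had them in 0.67% (0.46 to 0.96), so the intervals overlapped. The NFI palindrome (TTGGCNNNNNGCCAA, for NFIA and NFIB among others) was in 8 members (0.14%, 0.07 to 0.28), against 0.01% at the same GC, and in 2 stronger distal stretches. The RFX palindrome (GTTNCCNNGGNAAC) was in 10 (0.18%, 0.10 to 0.33), against 0.04%, and in 0.26% of stronger distal stretches. The cyclic-AMP response element TGACGTCA was in 16 (0.29%, 0.18 to 0.47), against 0.15%, and in 0.62% of stronger distal stretches. NRF1 letters (GCGCATGCG) were in 6 (0.11%), against 0.04%, and in 0.21% of stronger distal stretches. These counts are small, and 1 site each for CTCF, NFI and RFX is in the windows printed above.

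In percentage points, the widest gap between weak and stronger stretches was at the SP/KLF letters. SP/KLF letters (GGGCGG), common in promoter islands, were in 284 members (5.10%, 4.55 to 5.71) and in 10.1% (9.20 to 11.0) of stronger distal stretches. The genome gave 3.55% at the members' GC and 5.76% at that of the stronger stretches, so the ratios were 1.44 and 1.75. The MYC E-box (CACGTG) was in 3.48% (3.03 to 4.0), against 2.41%. The homeobox core (TAATTA) was in 5.71% (5.13 to 6.35), against 4.69%, and the NFY box (AGCCAAT) in 2.71% (2.32 to 3.17), against 2.37%. The OLIG E-box (CAGATG) was in 16.7% against 16.1%, TEAD letters (ACATTCC) in 2.87% against 2.67%, and REST letters (TTCAGCACC) in 0.20% against 0.23%, all with the genome level inside the interval. YY1 letters (AAGATGGC) were in 1.24% against 2.54%. Among windows at most 50% masked as repeat the YY1 shares were 1.15% and 1.25%, so the difference was smaller there. With the same limit the other motifs kept the side of the genome level they were on, except TEAD letters (2.93% against 3.07%). The ratios there were 1.46 for AP-1, 1.45 for SOX, 1.30 for the ASCL E-box, 1.52 for the ETS core and 3.17 for CTCF.

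**Figure D4:**
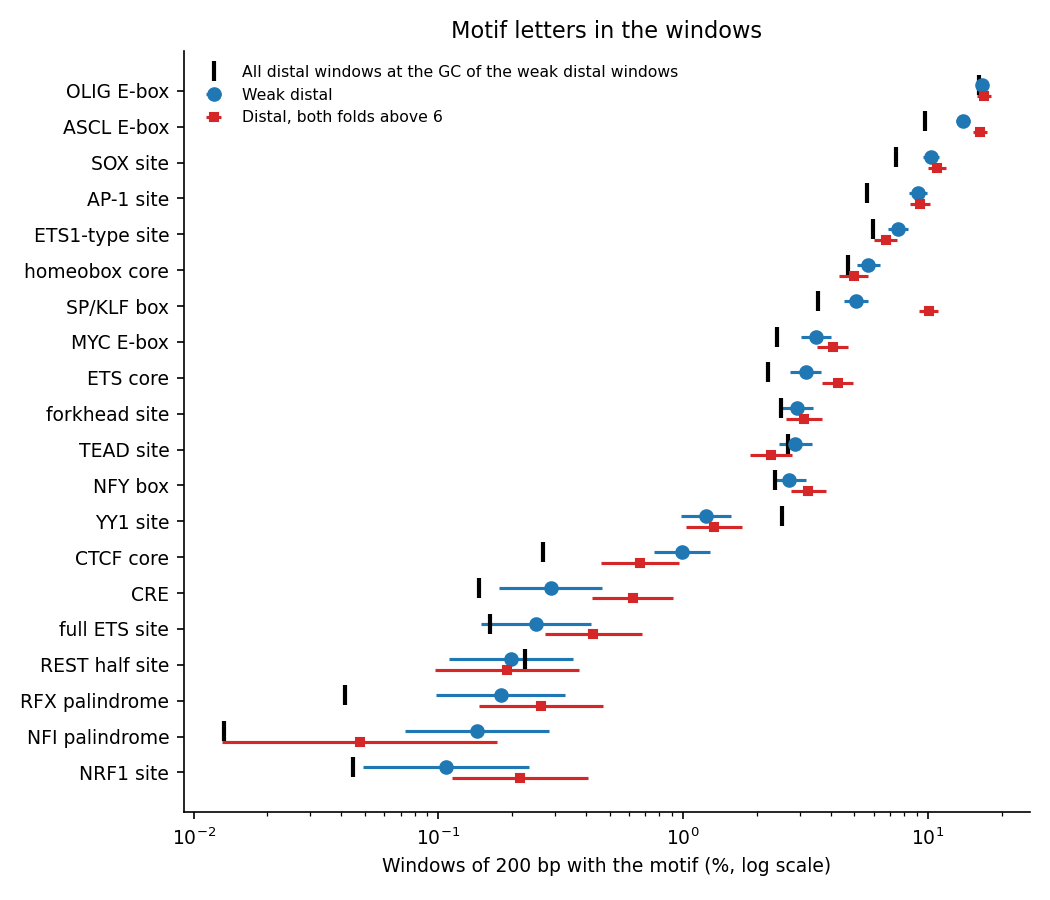
Percentage of 200 bp windows with each motif (horizontal, log scale) in weak distal stretches (circles) and distal stretches with both folds above 6 (squares), with 95% Wilson intervals, and in all distal windows at the GC content of the weak distal windows (black ticks). AP-1 letters are in 9.13% of weak windows against a tick at 5.65%, and CTCF letters in 0.99% against 0.27%.

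Several motifs, though not all, were more frequent at the centre of the shared stretch than at the summits. CTCF letters were in 0.99% of windows at the centre of the stretch, but in 0.34% and 0.27% of windows at the summits of replicates 1 and 2. AP-1 letters went from 9.13% at the centre to 7.29% and 6.90% at the summits, SOX letters from 10.3% to 8.80% and 9.20%, and the ASCL E-box from 13.9% to 11.3% and 11.9%. ETS letters went from 3.16% to 2.77% and 3.20%, so replicate 2 showed no drop. Forkhead letters went the other way, from 2.91% at the centre to 3.13% and 2.98%, as did the homeobox core, from 5.71% to 6.04% and 6.07%, and TEAD letters, from 2.87% to 3.04% and 3.09%. The stronger distal stretches went from 9.26% to 5.64% and 5.78% for AP-1. Where the summits of a member lay within 100 bp of each other, CTCF letters were in 1.54% of centres, AP-1 in 10.3%, SOX in 11.7% and the ETS core in 4.03%. Where the summits were over 400 bp apart, the shares were 0.48%, 8.67%, 9.05% and 2.78%. In windows at the summits of replicate 1 the CTCF shares in these groups were 0.40% and 0.21%, and at the summits of replicate 2 they were 0.20% and 0.27%, so the replicates did not share an order there.

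The members were also compared with the DNA around them. Per 100 bp, AP-1 letters were in 4.93% of segments within 200 bp of the mean of the 2 summits and in 3.14% of segments 600 to 1000 bp away. SOX letters were in 5.34% and 3.49%, the ASCL E-box in 7.20% and 5.05%, the ETS core in 1.71% and 1.11%, and CTCF letters in 0.53% and 0.13%. Forkhead letters were in 1.70% and 1.48%, and the homeobox core was in 3.09% near and 3.20% away. The shares varied with height among the members in no common direction. AP-1 letters were in 8.52%, 10.04% and 9.0% of members with the lower fold under 4, at 4 to 5, and at 5 or more, the ETS core in 3.19%, 2.81% and 4.40%, and CTCF letters in 1.10%, 0.92% and 0.60%.

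Members often lay in the neighbourhood of a stronger site, at a start or distal. The median distance from a member to the nearest stretch with both folds above 6 was 27585 bp. Such a stretch lay within 5 kb of 15.7% of members, within 10 kb of 28.8% and within 50 kb of 64.3%. The same distances held 3.66%, 7.45% and 26.7% of all distal windows. Another weak member lay within 5 kb of 15.2% of members, some of which share a peak with that neighbour. The median distance between nearest members was 55485 bp. Stronger distal stretches had another stretch with both folds above 6, at a start or distal, within 5 kb in 15.9%, within 10 kb in 30.1% and within 50 kb in 69.2%. Members thus lay near stronger sites more often than distal windows did, about as often as stronger distal stretches did.

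Density differed between chromosomes. Over the assembled sequence there were 2.18 members per Mb. Chromosomes 11 and 13 had 4.45 and 4.43 per Mb, followed by 15 (3.33), 6 (3.12), 3 (2.96) and 1 (2.86). The lowest autosome was 16 with 1.33 per Mb, and X had 0.21 per Mb, with 35 members in all. Stronger distal stretches had 3.52, 3.24 and 2.80 per Mb on chromosomes 11, 13 and 15 and 0.15 on X, and the densities of the 2 classes had a Spearman rho of 0.89 over 20 chromosomes, given as a description since both come from the same libraries. The number of weak for each stronger stretch ran from 1.07 on chromosome 8 to 1.73 on chromosome 19. The high level was spread along chromosomes 11 and 13, where 10 of 12 segments of 10 Mb held more than the mean of 21.8 members, while none of 17 segments on X did. The number of copies of each chromosome in the line was not measured in these files, so its part in the density was not tested.

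**Figure D5:**
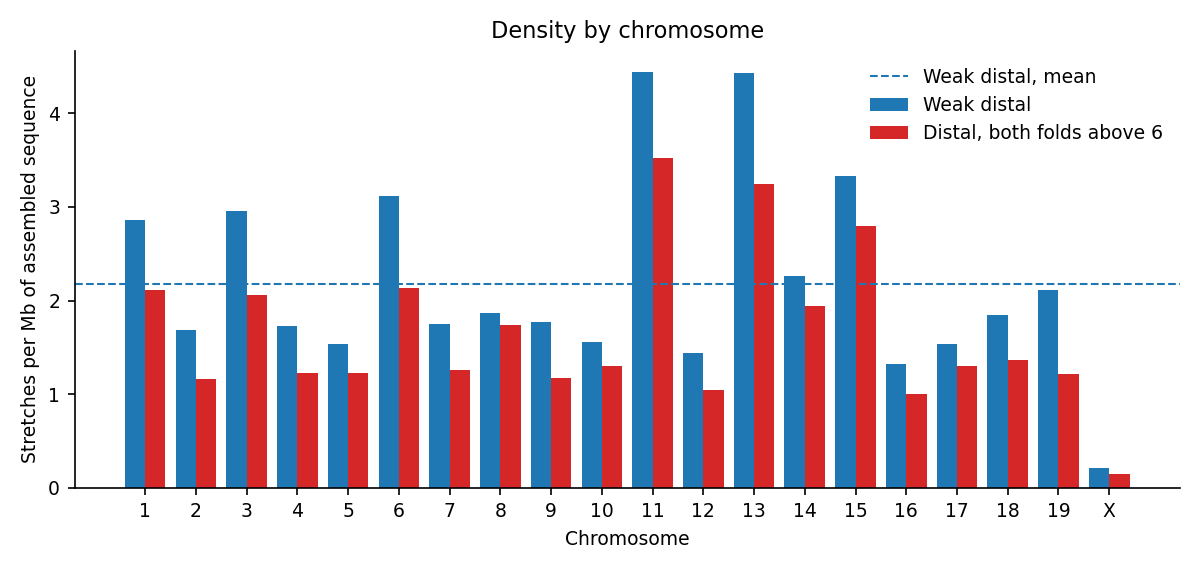
Stretches per Mb of assembled sequence (vertical) on each chromosome (horizontal), for weak distal stretches and distal stretches with both folds above 6, with the weak distal mean of 2.18 as a dashed line. Chromosomes 11 and 13 stand highest at 4.45 and 4.43, and X is at 0.21.

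A stretch centre lay in the body of 2039 of 21755 protein-coding genes, 1 only in 1495 of them, 2 to 4 in 495 and 5 or more in 49. Of the 2039 genes, 1428 held no stronger distal centre. Long genes led the 22 with 6 or more. Among gene models of great length, Gm20388 (4435 kb, spanning many genes) held 18 and Fgfr2 (2961 kb in this release, a fibroblast growth factor receptor) held 10. Pde4d (a cyclic-AMP phosphodiesterase, 1504 kb) and Sox5 (a SOX factor of neural and glial precursors, 954 kb) held 13 each, or 8.65 and 13.6 per Mb. Ank2 (a membrane skeleton adaptor) held 9 and the readthrough model Iqschfp 8. Sema6a (an axon guidance ligand), Msi2 (an RNA-binding protein of progenitors), Bach2 (a transcriptional repressor) and Ptprm (a receptor phosphatase) held 7 each. The shortest of these, Sema6a (133 kb), had 52.5 centres per Mb, against 2.18 over the whole assembly, with 1 stronger distal centre. The 12 genes tied at 6 were Arid1b, Atxn1, Dnm3, Igsf21, Ncam2, Nsmce2, Opcml, Sept9, Snd1, Tnr, Trio and Zfhx3. Igsf21, which encodes a synaptic adhesion protein, held 6 weak centres and 0 stronger distal ones. A longer gene has more room for stretches, which is why densities are given beside the counts.

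Glial genes had dense weak stretches, and among the 6 lists the 4 genes of electroporation models came close (8.25 members per Mb, near 3 of the 4). A centre lay in the body or within 50 kb of 18 of 26 glial genes (69.2%), against 6757 of all 21755 protein-coding genes (31.1%). Over the regions of the list this was 8.37 members per Mb, against 2.83 per Mb over the regions of all protein-coding genes. Stronger distal stretches lay near 21 of the 26 (80.8%, against 23.1% of all protein-coding genes), at 11.5 per Mb against 2.10. Lists are described by counts, with no test.

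Sox10, which directs oligodendrocyte and neural crest identity, had 6 members within 50 kb, of which 3 lay closer to a start of Polr2f or Pick1. The highest, chr15:79175161-79176767 in a gene that is not protein-coding 9921 bp from the nearest start of Sox10, had 12 fragments in replicate 1 and 17 in replicate 2 (folds 5.74 and 5.91). The lowest, chr15:79210200-79210548, had 6 and 12 (folds 3.09 and 4.27). The 6 thus cover nearly the whole range of heights that the rule allows. Sox8, its close relative, had 3, of which 2 lay closer to Sstr5 or Lmf1, and the highest had folds of 5.74 and 5.26 at chr17:25556455-25556803, 13411 bp from its start. Olig1 and Olig2, neighbouring genes for basic helix-loop-helix factors, shared 1 stretch at chr16:91227826-91228793 (folds 4.42 and 5.59). Myrf, an activator of myelin genes, had 1 at chr19:10242761-10244157 (5.74 and 4.60), 2013 bp from its start. Zfp536, a zinc finger factor, had 2 in its introns.

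The NFI genes, whose products act in the onset of gliogenesis, had 9 members between them. Nfia had 4, among them chr4:97951713-97954426 (5.30 and 5.59), the longest member of all at 2714 bp. Nfib had 2, in introns, at folds of 4.86 and 3.94 and of 5.74 and 5.91. Nfix had 3. Of surface and matrix genes of oligodendrocyte precursors, Tnr had 6 members, all in its introns, Cspg4 5 (3 of them closer to another gene), Ptprz1 3, and Pdgfra and Lhfpl3 2 each. The Pdgfra member chr5:75163531-75163964 has its centre in coding sequence (folds 4.86 and 5.26). Mbp, a major myelin protein, had 2 in introns, at 3.98 and 4.93 and at 5.30 and 5.59. Gfap (astrocyte filament; 4.86 and 5.91), Aldh1l1 (astrocyte folate enzyme; 3.98 and 4.93) and Fabp7 (radial glial fatty acid binding; 3.09 and 4.27) had 1 each. No member lay in or within 50 kb of Sox9, Nkx2-2, Mog, Mag, Aqp4, Slc1a3 or Bcan. Stronger distal stretches did lie in or within 50 kb of Bcan (5), Slc1a3 (2), Sox9 (1), Nkx2-2 (1) and Mog (1), but not of Mag or Aqp4.

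Genes of ganglionic eminence patterning and interneurons had members near 7 of 22 (31.8%), close to the 31.1% of all protein-coding genes, and 2.83 per Mb over their regions. Stronger distal stretches lay near 4 of the 22 (18.2%), against 23.1% of all protein-coding genes, at 1.29 per Mb against 2.10. Gsx2, a homeobox gene of the lateral ganglionic eminence, had 2, the higher at chr5:75062799-75063600 (5.30 and 4.93), 12001 bp from its start. The lower lay closer to Chic2. Erbb4, the neuregulin receptor of interneurons, had 2, of which chr1:69059838-69060294 in an intron had folds of 5.74 and 5.26. Sp9 had 1 in an untranslated part of its own exons, chr2:73274661-73275227 (5.74 and 4.60). Pvalb had 2, closer to Ift27 than to Pvalb, Nxph1 had 2 in introns, and Gad2 and Maf had 1 each. The Gad2 member lay closer to Myo3a. No member lay in or within 50 kb of Nkx2-1, Lhx6, Lhx8, Dlx1, Dlx2, Dlx5, Dlx6, Sst or Npy.

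Dorsal telencephalon genes had members near 6 of 17 (35.3%), at 3.81 per Mb, against 31.1% and 2.83 per Mb for all protein-coding genes. Stronger distal stretches lay near 2 of the 17 (11.8%), against 23.1% of all protein-coding genes. Cux2 (upper-layer neurons) and Neurog1 (a proneural factor) had 3 each, including a Cux2 member closer to Atxn2 and a Neurog1 member closer to Tifab. Neurog2 had 1 at chr3:127625495-127626202 (5.30 and 5.26), 6933 bp from its start. Bcl11b, Neurod2 and Slc17a7 had 1 each, closer to Stard3 for Neurod2 and to Pih1d1 for Slc17a7. ETS family genes had members near 9 of 26 (34.6%, also near the 31.1% of all protein-coding genes), at 3.97 per Mb. Stronger distal stretches lay near 9 of the 26 as well (34.6%), at 4.21 per Mb, against 23.1% and 2.10 per Mb for all protein-coding genes. Ets1 had 6, with the highest fold pair 5.30 and 5.59 at chr9:32763981-32764970, and shared 1 of them with its neighbour Fli1. Etv4 had 3, Etv6 2, and Elf1, Elf2, Elk3, Erg and Etv5 1 each. The Elf1 stretch had the highest folds allowed (5.74 and 5.91) and lay closer to Kbtbd6. The Elf2 stretch lay closer to Mgarp.

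Synaptic adhesion genes were often touched and yet sparse. A member lay in or near 20 of 33 (60.6%), against 31.1% of all protein-coding genes. Stronger distal stretches lay near 11 (33.3%), against 23.1%. These genes are long (median 791 kb, against 17.4 kb for all protein-coding genes). Over their regions there were 1.47 members per Mb, below the 2.83 of all protein-coding genes. For stronger distal stretches the density was 0.79 per Mb, against 2.10. Ncam2 had 7, Opcml 6 and Ncam1 4, all genes of immunoglobulin-type cell adhesion molecules. Cntnap2, Dscam and Nlgn3 had 3 each. The 3 of Nlgn3 are among the 35 members on X. The neurexin genes Nrxn2 and Nrxn3 had 1 each in introns, the higher at chr12:89290250-89291474 in Nrxn3 (4.86 and 5.91).

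Of 4 genes used in this or other electroporation models (Foxr2, Trp53, H3f3a and Pdgfra), Pdgfra had the 2 members above, Trp53 had 1 within 50 kb (chr11:69547116-69547230, folds 5.30 and 5.59, in an intron of Dnah2) and H3f3a had 1 (4.86 and 5.59). Foxr2 had none. A stretch in its coding exon, chrX:153130144-153130966, had folds of 5.74 and 6.24 and so falls outside the rule. Another at chrX:153139976-153140239 (4.86 and 4.60) lies beyond the end of Foxr2 and overlaps a protein-coding start outside that gene. Whether reads from the vectors map to these genes was not tested.

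The 10 highest members all had 12 and 17 fragments, because 217 members tied at the top −log10 q of the weaker replicate (6.45) and 78 of these also had the top value in the other (8.67). They were the 10 whose summits agreed best, at 3 to 18 bp apart. Chromosome 11 held 6 of the 10. They lay near or in Stac2, Pitpnc1, Ccnl1, P3h1, Rfng, Gpr179, Rab11fip4, Aldh3a2, Lrrc49 and Farsb. The closest to a start was in an intron of Gpr179 at 1324 bp (chr11:97349992-97350692), and the farthest lay 86867 bp from Ccnl1 (chr3:65870873-65871382).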

How the data were processed

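Peaks came from CUT&RUN of 2 FOXR2 P53LoF and 2 G34R control libraries. Per the submitters' processing notes and the methods, the authors trimmed reads with Trimmomatic 0.39, aligned them to mm10 with BWA 0.7.17, removed duplicates with Picard 2.26.6 and called peaks in each library with MACS2 2.2.7.1 (HOMER 4.11 made tracks). The deposited fold is a ratio of summit to background within a library. Significance was deposited as −log10 p and −log10 q, computed by the authors in the same call. The lists give no read totals, so precision rests on fragments at the summit, recovered from the step between folds.

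Stretches, distances and classes were computed with GENCODE M21 in Python 3 (numpy, pandas, numba). Where classes overlapped, coding exon came before untranslated exon, intron, non-coding gene and intergenic. Motif letters were counted in 200 bp windows and, as a reference, in every distal 200 bp window, whose shares by GC content were weighted to the members' GC. Steps were tested on simulated data.

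The members, motifs and gene lists were chosen with earlier results of these data known. The rule used all 4 libraries and regions are not replicates, so no test was run. Genes and stretches named are the 10 with the highest −log10 q in the weaker replicate, 1 window per motif, the 15 genes with most centres (22 with ties) and every listed gene with a centre within 50 kb. The breaking of ties, the limit to centres outside exons for windows and the repeat limit for motifs were decided with the data in view. The report prints 8 of the 20 windows. Results for some single genes are not reported here.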

Additional observations from a re-analysis of the deposited data

How the results depend on the processing

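No paired analysis was possible because the results come from no test. The 5 main values were recomputed under up to 10 alternatives, and 29 of 46 values stayed within the error of the main value, or within 1.5 times it for the count. The number of members depended on the rule: it was 3075 at a fold limit of 5, 2756 where the stretch covers at least 50% of both peaks and 2941 with −log10 q above 3 in both peaks, and 15035 to 20251 peaks met the rule in 1 replicate alone. The intron share was 45.6% for members over 5 kb from every start. Median GC was 47.0% where the stretch covers at least 50% of both peaks, 46.5% with −log10 q above 3, with windows at most 50% masked and with windows around the mean of the 2 summits, and 44.5% to 45.5% in 1 replicate alone. The ETS core was in 2.52% to 2.53% of peaks of 1 replicate alone and in 6.32% of 400 bp windows. SOX letters were in 11.2% where the stretch covers at least 50% of both peaks and in 19.02% of 400 bp windows. Wider windows hold more letters by construction, and the cause of the other shifts was not tested. The same alternatives were added for AP-1, ASCL and CTCF letters, and 21 of 30 values stayed within the interval. Fragments at the summit, 6 to 17 in a member, limit the precision of every fold.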
